A study of Mus musculus with 16 samples.

Results

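The genes described here belong to the pathway that controls the G1 phase of the cell cycle, and were measured in RNA of mouse embryonic stem (ES) cells. They are the cyclins Ccnd1, Ccnd2, Ccnd3, Ccne1 and Ccne2, the cyclin-dependent kinases Cdk2 and Cdk4, the inhibitor Cdkn1b (p27), the retinoblastoma gene Rb1 and the transcription factor E2f1. Their members on the array are all probe sets, the groups of oligonucleotides that each report 1 intensity, whose platform annotation names 1 of the 10 genes and no other gene. There are 28 such probe sets among 45101 on the array, for 10 of 18194 named genes, from 1 for Ccne2 to 7 for Ccnd2.

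In the textbook pathway, D-type cyclins bind Cdk4 and phosphorylate the Rb protein, which then releases E2F factors. E2F factors switch on genes of DNA replication and also the E-type cyclins, which work with Cdk2. Cdkn1b holds back the cyclin E kinase. ES cells are known for a short G1 phase with little dependence on D-type cyclins and high cyclin E and Cdk2 activity.

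All 16 arrays carried RNA of 1 line, E14tg2a, a mouse ES line, and per the design text the material was the same throughout. The 8 amplified arrays each began with RNA diluted to 10 pg, about what a single cell holds, and went through its own PCR-based cDNA amplification (the V1V3 method). The 8 nonamplified arrays began with 5 µg of the undiluted RNA. The question is how the array readout of each gene differs between these groups. The groups differed in starting amount and dilution (10 pg against 5 µg undiluted) together with PCR amplification. The separate part of each was not tested. Wording such as "after amplification" below therefore refers to the whole procedure, dilution included. Replicates are technical, so p-values measure the spread between reactions and arrays and not between cultures. The RNA is that of a whole culture, in which fewer cells with a transcript and less transcript per cell cannot be told apart.

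Median intensity ran from 33.9 to 36.7 on amplified arrays and from 49.7 to 53.8 on nonamplified arrays, on the linear scale as deposited. The lowest listed intensity, 1, was held by 6.77% to 8.36% of probe sets on amplified and 2.08% to 3.22% on nonamplified arrays. The labelled cell type was checked with markers on nonamplified arrays: all 10 ES cell genes, led by Dppa5a and Tdgf1, had a brightest probe set of 953 or more, and Pou5f1 measured 4159. All 8 fibroblast genes, led by Pdgfra and Col1a2, lay between 14.5 and 91.8. Among markers of extraembryonic endoderm, trophoblast, and neural or mesoderm cells, Lamb1 (604), Tfap2c (569.7) and Otx2 (588) stood above all other genes of these lists, while the trophoblast factors Cdx2 and Elf5 lay at 16.2 and 16.6. Summed over a list, nonamplified and amplified arrays ran from 444 to 553 and from 363 to 538 for fibroblast, from 1571 to 1802 and from 1150.2 to 3166 for extraembryonic endoderm, and from 1362 to 1546 and from 931 to 1516 for neural and mesoderm markers. The trophoblast sum ran from 1263 to 1500.3 and from 13700.2 to 16026. This rise was not general: of 9 tested trophoblast probe sets 2 were called higher and 3 lower (22.2% and 33.3%, against 24.7% and 32.8% of all tested). The probe sets brightest without amplification had amplified means from 8.17 (Cdx2) to 578 (Tfap2c). The rise therefore lay in other probe sets of these genes, which are not named here. The part of these lists in the results was not tested.

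Most probe sets of the G1 genes that changed were lower after amplification. Of the 28 probe sets, 23 passed the filter on low values and were tested, and all 10 genes kept at least 1. Of these 23, 12 were lower, 3 were higher and 8 did not pass the test (limma, 2-sided, Benjamini-Hochberg over 27022 probe sets, threshold 0.05). The filter used the mean over both groups, so a probe set could pass through 1 group alone. E2f1 1447840_x_at averaged 20.1 without amplification, under the filter intensity of 33.7. With amplification Ccnd2 1430127_a_at, 1448229_s_at and 1455956_x_at and Ccnd3 1444323_at averaged 27.4, 25.9, 29.1 and 30.9. Ccnd2 1434745_at had an amplified median of 6.72. Calls of these probe sets are given as a description and not as support for a change. Calls in either direction made up 65.2% of the G1 probe sets and 57.5% of all tested probe sets. Calls of lower made up 52.2% here against 32.8% of all tested, and calls of higher 13.0% against 24.7% of all tested. A decrease of at least 2-fold was called for 8 of the 23, or 34.8%, where the share over all tested probe sets was 22.1%. These came from Ccnd2, Ccnd1, Cdk2 and Rb1 alone, and most were probe sets of Ccnd2 and Ccnd1. Ccnd2 also held 5 of the 12 calls of lower. Probe sets of a gene are counted separately here, so these shares lean on the genes with many probe sets. They also include the probe sets named above whose calls are only a description. Counting 1 probe set of each gene, that with the highest level, 5 of the 10 genes were lower and 2 higher. Among all 13660 genes counted in this way, 24.8% were lower and 27.4% higher. Values of the 2 groups did not overlap for 8 probe sets, or 34.8%, close to the 33.6% of all tested probe sets. Of these 8, 6 lay lower and 2 higher, where the shares over all tested probe sets were 18.8% and 14.8%. The median log2 difference, amplified minus nonamplified, was −0.43 over the 23 probe sets and −0.17 over all tested. Differences below are on the scale of log2(intensity + 16), which understates changes of dim probe sets. SDs of differences and of the spread between arrays are on that scale too, while an SD beside an intensity is in intensity units.

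The direction of small differences depends on how arrays are scaled to each other, which is not given in the sources used here. The median over all tested probe sets was −0.028 under quantile normalization, 0.045 scaled on the brighter 50% of probe sets, 0.24 when arrays were centred on their medians and −0.59 scaled on the hybridization controls. The share of calls that were higher was 43%, 50.7%, 54.1%, 63.2% and 22.5% in the order as deposited, quantile, brighter 50%, median and hybridization controls. In that order 57.5%, 60.3%, 58%, 60.3% and 58.3% of all tested probe sets were called. Among the G1 probe sets these settings gave, in the same order, 3 higher and 12 lower, 3 and 14, 3 and 9, 5 and 9, and 0 and 17. In all, 9 probe sets kept their direction and call in every alternative run that tested them and with any 1 array left out. These were the 5 of Ccnd2, the 2 lower ones of Ccnd1, that of Cdk2 and 1417850_at of Rb1, and all were lower. Those of Ccnd2 other than 1416122_at had amplified means or medians under the filter intensity, and their part of this count is a description.

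**Figure D1:**
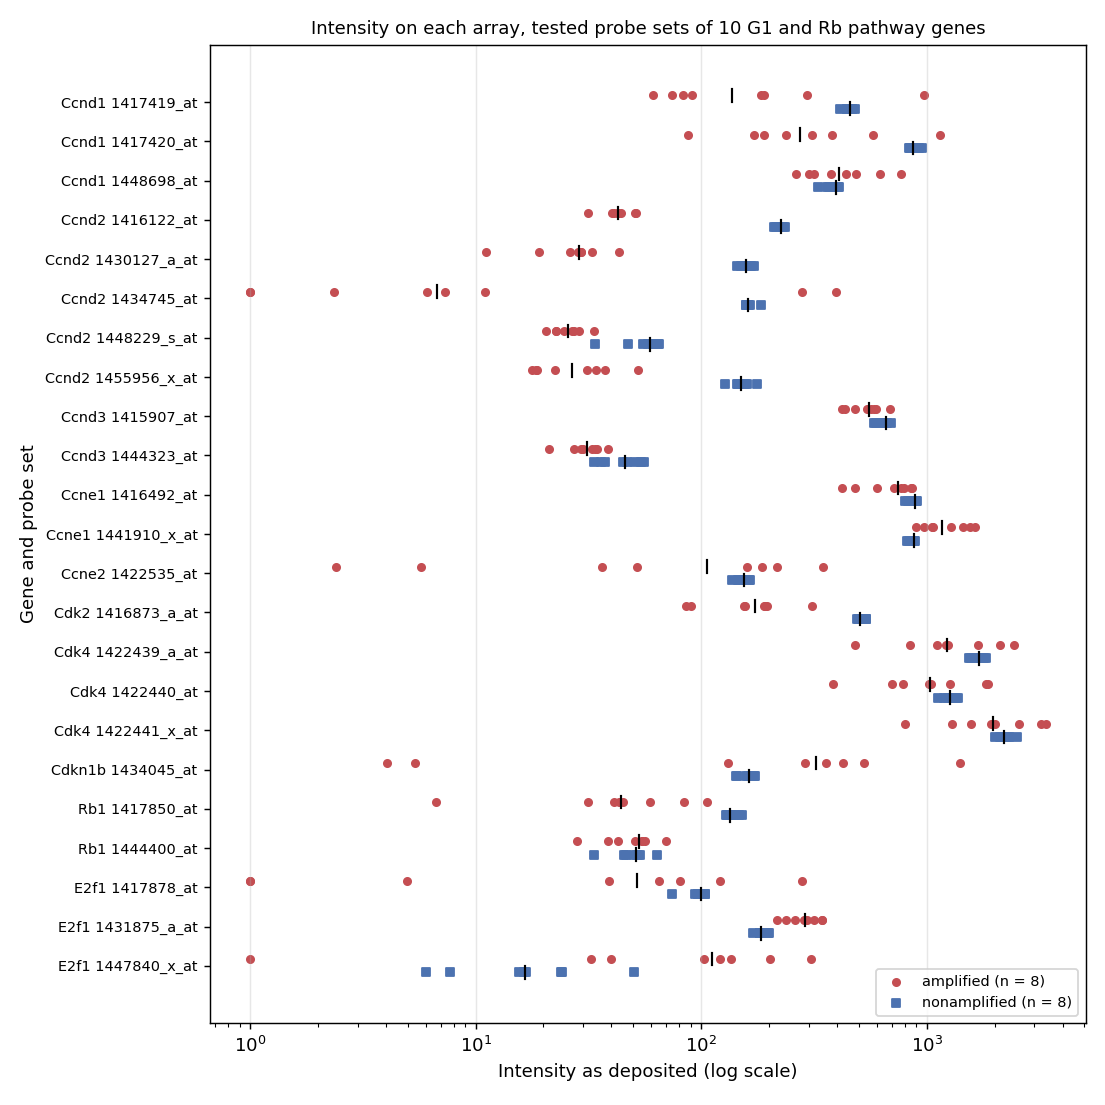
Intensity as deposited (log axis) on each of 8 amplified (red circles) and 8 nonamplified arrays (blue squares) for the 23 tested probe sets, with the group median as a black bar. Blue points sit in tight clusters for most probe sets, but run from 6.01 to 50.3 for E2f1 1447840_x_at. Red points of Ccnd2 1434745_at, Ccne2, Cdkn1b and E2f1 1417878_at and 1447840_x_at spread from near the lowest value to above the nonamplified range.

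Ccnd2, which encodes cyclin D2, was lower at all 5 tested probe sets, and at 4 of them by −2.10 to −1.93 on the log2 scale. Probe set 1416122_at ran from 211 to 235 with a median of 226 on nonamplified arrays, and from 31.4 to 51.2 with a median of 42.7 on amplified arrays. The groups were far apart, and the log2 difference was −2.03 (SE 0.078, limma adjusted p = 1.22e-12). Probe set 1430127_a_at went from a median of 158 (144 to 171) to 28.8 (11.1 to 43.1), a log2 difference of −2.04. Probe set 1455956_x_at went from a median of 151 (128 to 177) to 26.8 (17.9 to 52.6), a difference of −1.93. Each of these probe sets was lower on all 8 amplified arrays than on any nonamplified array. Probe set 1448229_s_at fell from a median of 59.4 (33.8 to 65.0) to 25.7 (20.6 to 33.4), a difference of −0.77 (SE 0.11).

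The Ccnd2 probe set 1434745_at gave an all-or-none picture on amplified arrays. Its nonamplified values ran from 158 to 183. On amplified arrays it measured 398 in replicate 4 and 279 in replicate 8, both above every nonamplified array, and between 1 and 11.1 in the other 6. Its SD of 1.91 on amplified arrays against 0.065 did not pass the limma spread test described below (adjusted p = 0.127). The log2 difference of −2.10 (SE 0.64, limma adjusted p = 0.00982) is therefore a mean over values that lie far to either side of the nonamplified level. The pair of arrays that were bright here showed no such signal at the other Ccnd2 probe sets, where 1416122_at read 44.1 and 51.2 and 1430127_a_at read 11.1 and 19.1. The remaining probe sets of Ccnd2, 1416123_at and 1416124_at, were under the filter, with nonamplified medians of 25.2 and 24.9.

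Ccnd1, which encodes cyclin D1, was lower at 2 of 3 probe sets and varied widely between reactions. Probe set 1417420_at ran from 831 to 950.0 (median 866) on nonamplified arrays and from 87.9 to 1146 (median 274) on amplified arrays. It was below the whole nonamplified range on 7 amplified arrays and above it on 1, with a log2 difference of −1.51 (SE 0.36, limma adjusted p = 0.00185). Probe set 1417419_at ran from 412 to 480 (median 457) and from 61.4 to 974 (median 137), a difference of −1.41 (SE 0.41, limma adjusted p = 0.00767). It too was low on 7 amplified arrays and high on 1, but not on the same one. Replicate 5 held the highest value of 1417420_at, at 1146, and read 294 at 1417419_at, whereas replicate 3 held the highest value of 1417419_at, at 974, and read 577.5 at 1417420_at.

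The third Ccnd1 probe set, 1448698_at, overlapped between the groups, from 330 to 410 (median 397) on nonamplified and from 262 to 770 (median 407) on amplified arrays. Its log2 difference was 0.13 (SE 0.18, limma adjusted p = 0.585), and a call of higher appeared only among the median-centred values (0.54, limma adjusted p = 0.0180) of the scalings run. Setting probe sets of a gene against each other on the same array removes most of any scaling that shifts a whole array. The log2 level of 1417420_at minus that of 1448698_at averaged 1.16 ± 0.15 (SD, n = 8) on nonamplified and −0.48 ± 0.85 (SD, n = 8) on amplified arrays, without overlap. The groups differed by −1.64 (2-sided exact permutation p = 0.000155, the lowest possible with 12870 regroupings, and 0.000426 after Benjamini-Hochberg adjustment over 22 pairs of probe sets). This comparison of pairs was chosen after the data were examined.

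Ccnd3, which encodes cyclin D3, was lower at both tested probe sets, with log2 differences of −0.26 and −0.37. Probe set 1415907_at ran from 583 to 695 (median 656) without amplification and from 420 to 690 (median 556) with it. The ranges overlapped, and the log2 difference of −0.26 (SE 0.10, limma adjusted p = 0.0369) turned to 0.15 with median centring. Its call was lost with weights per group, where all arrays of a group share 1 weight (limma adjusted p = 0.131). It was also lost with a robust intensity trend (0.0659) and when scaled on the brighter 50% (−0.043, limma adjusted p = 0.733). It was also lost without amplified replicate 2, 5 or 7 or nonamplified replicate 2, 3, 6, 7 or 8, and the difference ran from −0.31 to −0.21 over all arrays left out in turn. Probe set 1444323_at went from a median of 46.0 (33.6 to 55.6) to 31.3 (21.2 to 38.6), a difference of −0.37 (SE 0.10, limma adjusted p = 0.00579) that turned to 0.033 under quantile normalization and 0.036 with median centring. That call was also lost with weights per group (limma adjusted p = 0.193) and scaled on the brighter 50% (−0.16, limma adjusted p = 0.191). The third probe set, 1438805_at, was under the filter, between 1 and 38.8 on all 16 arrays.

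**Figure D2:**
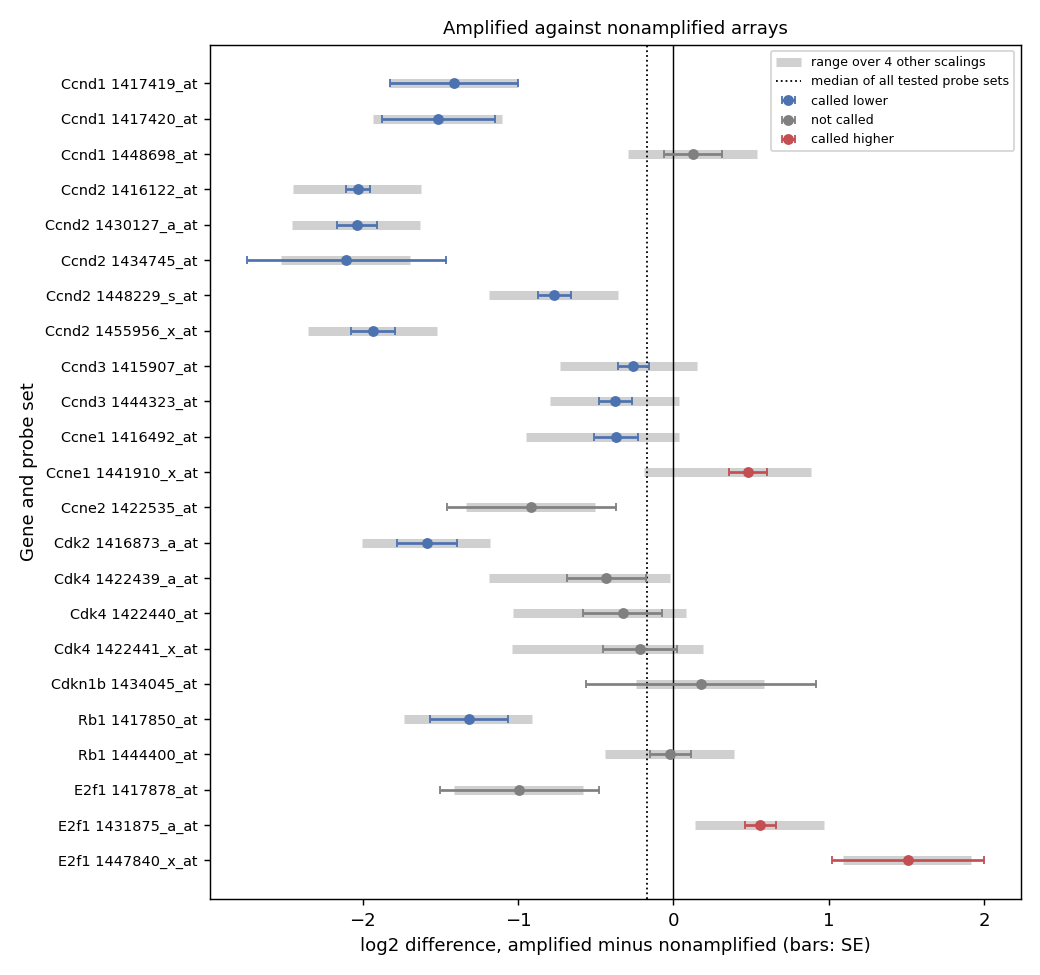
Log2 difference (amplified minus nonamplified, points, with SE) for the 23 tested probe sets, coloured by call, with grey bars for the range over the 4 other scalings and a dotted line at the median of all tested probe sets, −0.17. The bars of the 5 Ccnd2 probe sets, Cdk2 and Rb1 1417850_at stay below 0, while those of Ccnd3, Cdk4 1422440_at and Cdkn1b cross it.

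Ccne1, the cyclin E1 gene, was called in opposite directions by its 2 probe sets. Probe set 1441910_x_at ran from 821 to 884 (median 875) on nonamplified arrays and from 891 to 1638 (median 1172) on amplified arrays, all 8 of them above the nonamplified range. Its log2 difference was 0.48 (SE 0.12, limma adjusted p = 0.00315). Probe set 1416492_at ran from 804 to 905 (median 883) and from 421 to 859.5 (median 743), a difference of −0.37 (SE 0.14, limma adjusted p = 0.0317). The second turned to 0.038 with median centring and lost its call when scaled on the brighter 50% (−0.15, limma adjusted p = 0.388) and without amplified replicate 1, 6 or 7 or nonamplified replicate 2, 7 or 8 (−0.42 to −0.28 over all arrays left out in turn). The first turned to −0.19 under quantile normalization and lost its call when scaled on the hybridization controls (0.061, limma adjusted p = 0.780). On the same arrays the level of 1416492_at minus that of 1441910_x_at averaged 0.0055 ± 0.081 (SD, n = 8) without amplification and −0.84 ± 0.20 (SD, n = 8) with it. These values did not overlap (exact permutation p = 0.000155, 0.000426 adjusted over 22 pairs). The suffix _x_at marks a probe set that can hybridize with related sequences.

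Ccne2, the cyclin E2 gene, was not called in level but had a wider spread after amplification. Its single probe set, 1422535_at, ran from 138 to 164 (median 155) on nonamplified arrays. On amplified arrays it ran from 2.41 in replicate 7 and 5.73 in replicate 2 to 346 in replicate 1, with a median of 106. Of the 8 amplified values 4 were below and 3 above the nonamplified range. The log2 difference was −0.91 (SE 0.54) and did not pass the test (limma adjusted p = 0.165) except when scaled on the hybridization controls (−1.33, limma adjusted p = 0.0459), while the SD was 1.62 against 0.078 (spread test below, adjusted p = 0.00227).

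Cdk2, the kinase partner of E-type cyclins, fell on every amplified array. Probe set 1416873_a_at ran from 491 to 538 (median 507) on nonamplified and from 85.8 to 310.4 (median 173) on amplified arrays. The log2 difference was −1.59 (SE 0.19, limma adjusted p = 2.12e-06). The other probe set of Cdk2, 1447617_at, sat at or near the lowest value on all arrays, with a median of 1 in each group and a highest value of 11.7, and was not tested.

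Cdk4, the kinase partner of D-type cyclins, did not pass the test at any of its 3 probe sets. Probe set 1422441_x_at ran from 2005 to 2498 (median 2210.1) on nonamplified and from 803 to 3366 (median 1967) on amplified arrays. The log2 differences were −0.21, −0.33 and −0.43 for 1422441_x_at, 1422440_at and 1422439_a_at, with SEs of 0.24, 0.25 and 0.25. Under quantile normalization all 3 were called lower, with differences of −1.04, −1.03 and −1.18, as they were when scaled on the hybridization controls (−0.63, −0.74 and −0.85). With median centring they were 0.19, 0.082 and −0.023, none of them called. The call of 1422439_a_at was gained without amplified replicate 8 (−0.57, limma adjusted p = 0.0484).

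The reactions ranked the same way at all Cdk4 probe sets. Replicate 8 was highest and replicate 6 lowest at each, with 3366 and 803 at 1422441_x_at, 1863 and 385 at 1422440_at, and 2440 and 479 at 1422439_a_at. Over the 8 amplified arrays the 3 pairs had Pearson r of 0.991, 0.995 and 0.996 and Spearman rho of 1 (exact permutation p = 2.48e-05 for r, the smallest that 40320 pairings can give, 0.000182 adjusted over 22 pairs, and 4.96e-05 for rho, 0.000364 adjusted). Without the 2 arrays farthest from the median r was 0.975 or above. The same pairs had r of 0.843 to 0.872 on nonamplified arrays, over a much smaller range. The probe sequences were not used here, and probe sets of 1 gene may share target sequence.

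Cdkn1b, the gene of the inhibitor p27, went from a tight cluster to values spread over both sides of it. Probe set 1434045_at ran from 142 to 173 (median 164) on nonamplified arrays. On amplified arrays it read 4.03 in replicate 1, 5.41 in replicate 3 and 131 in replicate 4, against 288 to 1405 in the other 5, all above the nonamplified range. The mean log2 difference was 0.18 (SE 0.74, limma adjusted p = 0.857), and it turned to −0.23 without amplified replicate 2 and −0.031 without replicate 7. The SD of 2.21 on amplified arrays was the largest of the 23 probe sets, against 0.095 on nonamplified arrays. Of 6059 probe sets of other genes in the top 25% by mean level, those of Plk4, Mms22l and Tor1aip2 had the pattern most like it over the 8 amplified arrays, with Pearson r of 0.965, 0.947 and 0.918. These are the highest of many values over 8 arrays and are given as a description. The second probe set, 1419497_at, with medians of 42.3 and 12.4, was under the filter.

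Rb1, whose protein restrains E2F, fell at 1 of its 2 probe sets. Probe set 1417850_at ran from 129 to 151 (median 135) on nonamplified and from 6.67 to 106 (median 44.2) on amplified arrays, without overlap. The log2 difference was −1.32 (SE 0.25, limma adjusted p = 0.000270). The other probe set, 1444400_at, ran from 33.5 to 63.5 (median 51.2) and from 28.1 to 69.7 (median 52.8), a difference of −0.019 (SE 0.13, limma adjusted p = 0.914). It was called higher under quantile normalization and with median centring (0.38 and 0.39, limma adjusted p = 0.0163 and 0.0157). The level of the first minus that of the second averaged 1.23 ± 0.22 without and −0.065 ± 0.72 with amplification (SD, n = 8 each, no overlap, exact permutation p = 0.000155, 0.000426 adjusted over 22 pairs).

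E2f1, the factor released from Rb, had probe sets whose log2 differences ran from −0.99 to 1.51. Probe set 1431875_a_at was higher on all 8 amplified arrays, from 216 to 342 (median 289.6) against 170 to 200 (median 185; log2 difference 0.56, SE 0.097, limma adjusted p = 0.000105). That call was lost when scaled on the hybridization controls (0.14, limma adjusted p = 0.481). Probe set 1447840_x_at went from a median of 16.5 (6.01 to 50.3) to 112 (1 to 307), a difference of 1.51 (SE 0.49, limma adjusted p = 0.0142). The call was lost with a pseudocount of 1 and when scaled on the hybridization controls (1.86 and 1.09, limma adjusted p = 0.0677 and 0.0599). Probe set 1417878_at ran from 74.6 to 104 (median 99.5) without amplification and from 1 to 279 (median 52.1) with it. Its difference of −0.99 (SE 0.51) did not pass as deposited (limma adjusted p = 0.111), and was called lower with weights per group (limma adjusted p = 0.0415), when scaled on the hybridization controls (−1.41, limma adjusted p = 0.0256) and without amplified replicate 1 (−1.33, limma adjusted p = 0.0143).

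Across reactions, 1417878_at and 1447840_x_at of E2f1 moved together, although their mean differences had opposite signs. Replicate 1 was highest at both, at 279 and 307, and replicate 5 stood at 1 at both. Over the 8 amplified arrays r was 0.903 and rho 0.910 (exact permutation p = 0.00203 and 0.00308, adjusted over 22 pairs 0.0112 and 0.0135), and r was 0.910 without the 2 arrays farthest from the median. The Ccne1 pair had r of 0.854 and rho of 0.929 (exact permutation p = 0.00642 and 0.00223, adjusted 0.0283 and 0.0123), and r of 0.791 without 2 arrays. Both pairs include a probe set of type _x_at. None of the 3 Ccnd1 pairs passed: r was 0.53, 0.634 and −0.092 (exact permutation p = 0.187, 0.0901 and 0.835, adjusted 0.515, 0.283 and 0.931).

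**Figure D3:**
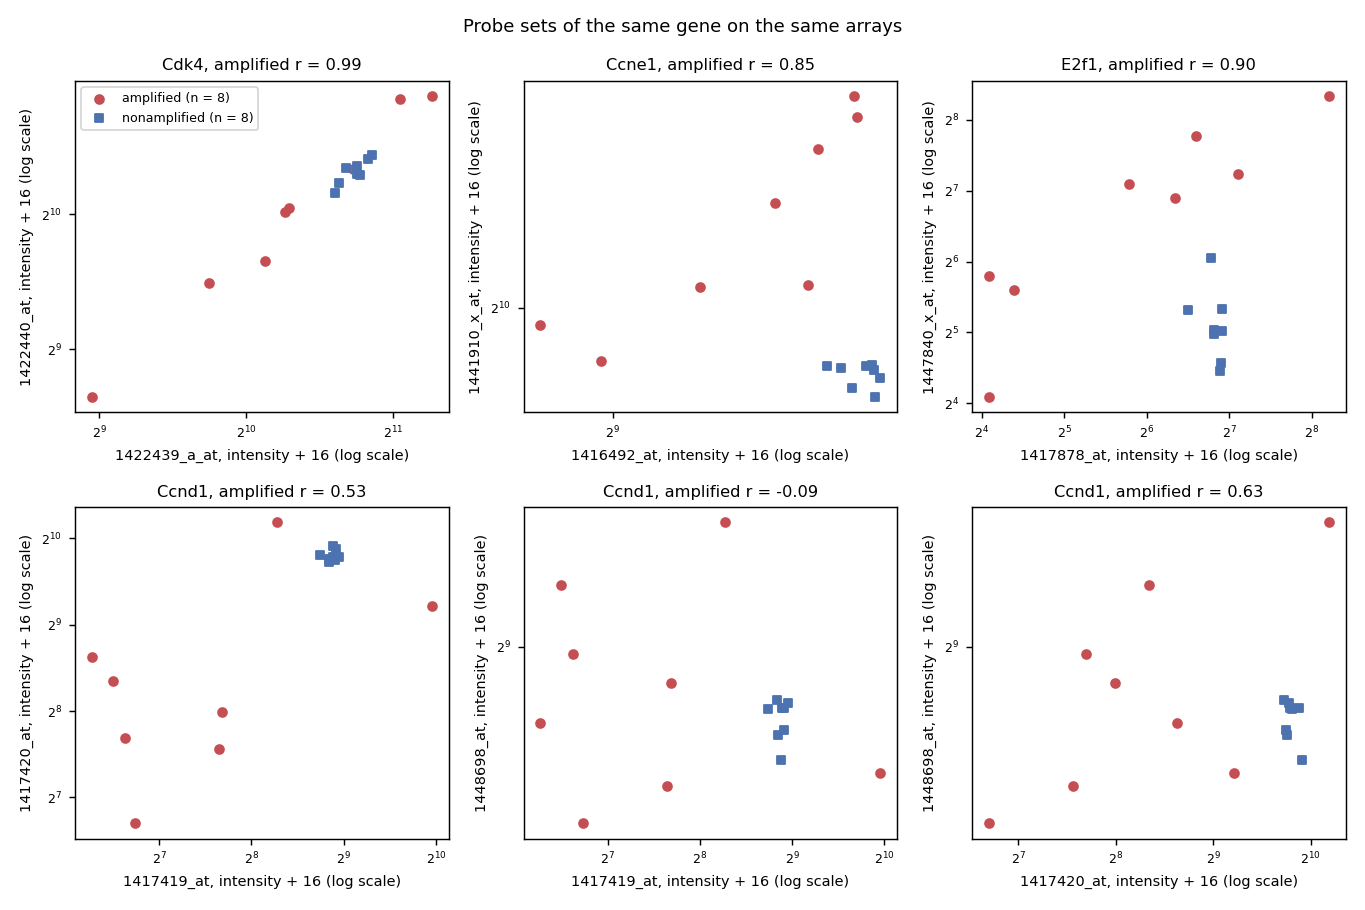
Intensity + 16 (log axes) of 2 probe sets of the same gene on each amplified (red circles) and nonamplified array (blue squares). The 8 reactions line up for Cdk4 (r = 0.99), E2f1 (0.90) and Ccne1 (0.85), and scatter for the 3 pairs of Ccnd1.

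In all, 5 of 22 pairs of probe sets of a G1 gene had an adjusted p under 0.05 for r over the amplified arrays, 3 of them from Cdk4. The median r was 0.084 over the 22 pairs, 0.024 over 231 pairs of probe sets from different G1 genes, and 0.16 over 14797 same-gene pairs of all tested probe sets. These medians describe 8 shared reactions and carry no test. The log2 difference varied within a gene by 2.50 for E2f1, 1.64 for Ccnd1, 1.34 for Ccnd2, 1.30 for Rb1, 0.85 for Ccne1, 0.22 for Cdk4 and 0.11 for Ccnd3. The median over 5605 genes with at least 2 tested probe sets was 1.35. For level differences between probe sets on the same array, 12 of 22 pairs had an adjusted exact permutation p under 0.05. All 3 Cdk4 pairs were among them, with group differences of −0.22 to −0.11, the lower-numbered minus the higher-numbered probe set. For E2f1, 1417878_at minus 1447840_x_at differed by −2.50 between the groups, without overlap.

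Amplified arrays differed more among themselves at 21 of the 23 probe sets. The exceptions were 1448229_s_at of Ccnd2 and 1444323_at of Ccnd3. The share of all tested probe sets with a larger SD on amplified arrays was not counted. The median SD on the log2 scale was 0.55 on amplified and 0.084 on nonamplified arrays, against 0.51 and 0.13 over all tested probe sets. A limma fit on the absolute deviation of each array from its group median called 12 of 23 probe sets wider on amplified arrays (52.2%) and 0 wider on nonamplified arrays, against 30.9% and 0.152% of all tested probe sets (31.0% in either direction). The 12 were all probe sets of Ccnd1 and Cdk4, those of Ccne2, Cdk2 and Cdkn1b, 1441910_x_at of Ccne1, 1417878_at of E2f1 and 1455956_x_at of Ccnd2. The excess over the array was not kept under every scaling: under quantile normalization 6 were called (26.1%, against 27.4% of all tested probe sets), and scaled on the hybridization controls 2 (8.70% against 8.77%). With any 1 array left out 3 to 8 were called (13.0% to 34.8%, against 17.9% to 22.6%), and the share was above that of all tested probe sets in 12 of 16 such fits. Without amplified replicate 1, 3, 5 or 8 it was below. With 7 arrays in a group the median is itself 1 of the arrays, whose deviation is then 0.

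**Figure D4:**
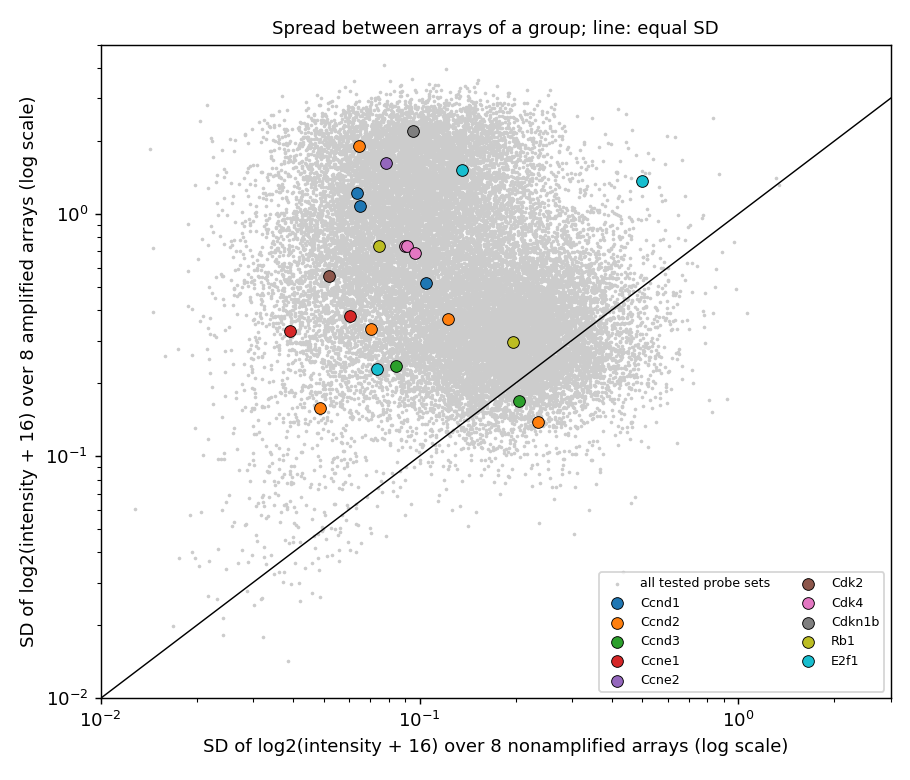
SD of log2(intensity + 16) over the 8 amplified arrays against that over the 8 nonamplified arrays (log axes), for all tested probe sets with an SD above 0 (grey) and the G1 genes (coloured). Of the 23 G1 probe sets, 21 lie above the line of equal SD, with Cdkn1b highest at 2.21 and Ccnd2 1434745_at next at 1.91. The spread of Ccnd2 1434745_at was not called wider.

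Loss of signal on single reactions was concentrated in a few probe sets. Of the 28 probe sets, 20 had a nonamplified mean in the upper 50% of the array. A value under an array's 25th percentile, which on amplified arrays was an intensity of 13.1 to 14.4, was counted as a dropout of these. On the 8 amplified arrays they did so 15 times in 160 chances (9.38%), against 14.5% over all probe sets in that upper 50%, and 0 times on nonamplified arrays. Ccnd2 1434745_at accounted for 6 of the 15, E2f1 1417878_at for 3, Ccne2 and Cdkn1b 1434045_at for 2 each, and Ccnd2 1430127_a_at and Rb1 1417850_at for 1 each. Each amplified array had between 0 and 3, with 0 in replicate 8. With the 10th percentile the number fell to 6.

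Other regulators of the G1 to S transition changed in both directions. Of 30 such genes, 29 had tested probe sets, 55 in all, of which 12 were higher, 15 lower and 28 not called (21.8% higher and 27.3% lower, 49.1% called, median log2 difference −0.26). Over all tested probe sets 24.7% were higher and 32.8% lower, 57.5% in all. Cks1b, a small Cdk-binding subunit, rose from 3330.1 ± 127 to 5299 ± 557 (SD, n = 8 each). E2f8, an atypical E2F repressor, rose from 97.9 ± 14.7 to 5640.1 ± 627 (SD, n = 8 each, log2 difference 5.64), and E2f5 had a difference of 1.53. Skp2, the ubiquitin ligase subunit that targets p27, had a difference of 1.06 at 1437033_a_at and −4.03 at 1449293_a_at, where it went from 312 to 4.52. That amplified mean lay under the filter intensity of 33.7, so the call of 1449293_a_at is given as a description. Skp1, its adaptor, fell at 1423149_at (−3.07) and had a difference of −0.36 at 1423148_at (limma adjusted p = 0.0762). Mnat1, an assembly factor of the Cdk-activating kinase, fell from 763 to 188 at 1432177_a_at (log2 difference −2.11).

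Genes of DNA replication and growth that E2F factors are known to activate also went both ways. Of 37 tested probe sets of 18 genes, 12 were higher, 16 lower and 9 not called (75.7% called, where all tested probe sets had 57.5%, median log2 difference −0.33). Pcna, the replication clamp, measured 5249 ± 152 without and 4748 ± 535 with amplification (SD, n = 8 each, log2 difference −0.15, limma adjusted p = 0.112). Cdt1, a licensing factor, rose at both named probe sets (1.59 and 1.14), and Mcm7, a helicase subunit, rose by 0.40. Mcm6 had a difference of 3.05 at 1447756_x_at, a probe set near the lowest value without amplification (1.79). Rrm1, the large subunit of ribonucleotide reductase, fell from 1178 to 30.8 (log2 difference −4.70), Uhrf1 from 738 to 22.5 (−4.32) and Mcm3 from 1178 to 57.9 (−4.05). The amplified means of Rrm1 and Uhrf1 and the nonamplified mean of Mcm6 lay under the filter intensity of 33.7. Calls of these probe sets are given as a description. Counting 1 probe set of each gene, that with the highest level, 8 of 18 E2F target genes were higher (44.4%) and 4 lower (22.2%). Over all 13660 genes tested in this way 27.4% were higher and 24.8% lower, with a median of −0.026. The median log2 difference of the E2F targets was then 0.13, opposite in sign to that over all their probe sets. By the same count 9 of 29 other G1 regulators were higher (31.0%) and 5 lower (17.2%, median −0.065), and 2 of the 10 G1 genes higher and 5 lower (median −0.59).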

How the data were processed

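Per the labels' protocols, total RNA was labelled as biotinylated cRNA for Affymetrix arrays of 1 colour. The values the authors deposited are linear intensity values, 1 for each probe set on each array. How probes were summarised, background corrected and scaled is not given in the sources used here, and the values were used as they stand. Of 45101 probe sets, 64 controls were left out. Of the others, 34945 had 1 gene symbol in the platform annotation, 932 had several and 9160 had none here. Symbols were updated through gene identifiers of RefSeq (GRCm38.p6).

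Values were taken as log2(intensity + 16). The 27022 probe sets whose mean over 16 arrays exceeded the 40th percentile (intensity 33.7) were tested. limma 3.58.1 (lmFit, eBayes, R 4.3.3) compared the groups, taken from the sample titles, with no covariate. p-values are 2-sided and adjusted by Benjamini-Hochberg over every tested probe set. Spread was compared with the same fit on absolute deviations from the group median. Correlations and differences between probe sets of a gene used exact permutation tests. Each step was tested on simulated data. The number of arrays limits precision, and no scan date or slide was used.

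All probe sets of the 10 genes are named. Of the 2 pathway lists, the probe sets named are the 2 brightest without amplification and, among those called, the 3 that rose most and the 3 that fell most. For the marker lists the rule names the 2 brightest, and other markers were named after their values were seen. The members, lists and tests were chosen with earlier results of these data known. The alternatives were other pseudocounts, scalings, filters and variance models, the replicate block, leaving out each array, another dropout percentile and 1 probe set per gene. Figures were drawn with matplotlib 3.10.9.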

Additional observations from a re-analysis of the deposited data

Results flagged for a closer look

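A single array stood far from the other 7 of its group at 2 of 46 sets of 8 values examined, where chance alone gives about 1 in 20. Both are nonamplified arrays. For Ccnd2 1434745_at, replicate 1 read 183 against 158 to 164 on the others, a gap of 0.723 of the whole range. For E2f1 1417878_at, replicate 4 read 74.6 against 93.8 to 104, a gap of 0.677. Without nonamplified replicate 1 the log2 difference of the Ccnd2 probe set kept its call, as did that of the E2f1 probe set, not called, without replicate 4.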

How the results depend on the processing

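Of the 23 log2 differences, 9 kept direction and call under all alternatives that tested them and with each array left out: those of Ccnd2, 1417419_at and 1417420_at of Ccnd1, Cdk2, and 1417850_at of Rb1. Of these, the Ccnd2 probe sets other than 1416122_at had amplified means or medians under the filter intensity and are given as a description. Called probe sets of the G1 genes numbered 11 to 17 over the alternatives (15 in the values as reported), and 13 to 16 with an array left out. The alternatives tested 18 to 28 probe sets of these genes and called 50.1% to 60.3% of all tested probe sets. With an array left out 23 were tested, and 54.6% to 58.4% of all tested probe sets were called. Calls of higher, 3 as reported, numbered 5 with median centring, 0 scaled on the hybridization controls and 1 without _x_at and _s_at probe sets. Wider spread, 12 as reported, was called for 6 under quantile normalization, 2 scaled on the hybridization controls, 7 with no filter, and 3 to 8 with an array left out. Over all probe sets unequal spread numbered 8384, with 2370 scaled on the hybridization controls and 4827 to 6095 with an array left out, and level calls numbered 10148 with the 60th percentile filter, which tests 18015. The 15 dropouts became 6 with the 10th percentile. With 1 probe set per gene the calls of lower were 5 of 10 for the G1 genes, 5 of 29 for other G1 regulators and 4 of 18 for E2F targets. Fewer probe sets are counted there, and the share called lower over all 13660 genes was 24.8%.

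Directions turned as follows, and the cause was not tested. With a pseudocount of 1 Cdkn1b 1434045_at was −0.21. Under quantile normalization Ccne1 1441910_x_at was −0.19, Ccnd3 1444323_at 0.033, Rb1 1444400_at 0.38 and Ccnd1 1448698_at −0.14. With median centring Ccnd3 1415907_at was 0.15, Ccne1 1416492_at 0.038, Cdk4 1422440_at 0.082, Cdk4 1422441_x_at 0.19, Ccnd3 1444323_at 0.036 and Rb1 1444400_at 0.39. Scaled on the brighter 50%, Cdk4 1422441_x_at was 0.000856 and Rb1 1444400_at 0.20. Scaled on the hybridization controls, Cdkn1b was −0.24 and Ccnd1 1448698_at −0.29. With an array left out Cdkn1b ran from −0.23 to 0.65 and Rb1 1444400_at from −0.078 to 0.059.

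The replicate numbers showed little sign of pairing in the size of the correlations: deviations of same-numbered arrays correlated with r of −0.0078 to 0.018. Of 8 amplified arrays, 3 correlated best with their own number, a count that was not tested against chance. With the replicate number as a block 13 of 23 probe sets of the G1 genes were called (3 higher, 10 lower), and 14856 of all tested probe sets (55%). Unequal spread was called for 6 of the 23 (26.1%, against 20.8% of all tested probe sets). The calls of Ccnd3 1415907_at and Ccne1 1416492_at were then lost (limma adjusted p = 0.0744 and 0.0589). The spread between 8 technical arrays a group limits precision, and probe sets near the lowest value carry little information on level.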
